A study of Macaca fascicularis with 36 samples.

Results

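Described here are 5 genes of the cynomolgus monkey frontal cortex, ENSMFAG00000003587, ENSMFAG00000045243, ENSMFAG00000037072, ENSMFAG00000002270 and ENSMFAG00000043027, out of 28623 genes in the count tables. They were picked because their level was more than 4-fold higher in animals given 200 mg/kg of the antibody Para09 than in animals given the antibody anti-gD, with a smaller difference at 50 mg/kg of Para09. All 5 were among the 17360 genes kept by a filter on low counts, which a gene could pass through its counts in the high group alone. The data came from bulk RNA sequencing of 12 monkeys (Macaca fascicularis) sampled on day 2 after intrathecal dosing. There were 4 animals in each of 3 groups: anti-gD at 200 mg/kg (the isotype control, animals 1501 to 1504), Para09 at 50 mg/kg (4501 to 4504) and Para09 at 200 mg/kg (5501 to 5504). Para09 is described in the labels as an agonist antibody against human TREM2, and no untreated animals are among these samples. Sex, age and strain are not in the labels used here, nor is it stated how a dose per kg applies to the intrathecal route.

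TREM2 is a surface receptor that in the brain is found mainly on microglia, the resident macrophages. It binds lipids and lipoproteins, signals through the adaptor protein TYROBP, and is known for supporting the survival, proliferation and phagocytosis of these cells. An agonist antibody is one that binds a receptor and switches on its signalling. The gene identifiers of the tables could not be paired with gene names, because 0 of them matched the reference table at hand. The function of the 5 genes, and markers of microglia or other cell types, are therefore not given, and the tissue label was not checked against markers.

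Each animal contributed 3 libraries, lettered A, B and C, and the meaning of the letters is not given. Libraries held 15.1 to 37.0 M counts (M for mega), and the summed libraries of an animal held 54.7 to 80.3 M. The sample identifiers fall into separate runs of numbers: the first series holds 16 libraries (every B library and all libraries of animals 1504 and 5501) and the second series holds the other 20. Library 5501B stood apart, with 15779 genes detected against 17974 to 19677 in the other libraries. Levels are given in CPM, the read count per 1 M counts of the library, for the summed libraries with TMM scaling, unless a single library is named. In bulk tissue, a change in the number of cells of a type and a change in RNA per cell cannot be told apart.

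The 5 genes differed widely in level, and the description "low-level" held for only some of them. In the control animals ENSMFAG00000003587 was above 46.2% of the kept genes and ENSMFAG00000045243 above 32.9%. The others were low, with ENSMFAG00000002270 above 10.98% of the kept genes, ENSMFAG00000037072 above 9.87% and ENSMFAG00000043027 above 0.645%. At 200 mg/kg these shares were 79.3% for ENSMFAG00000003587, 68.4% for ENSMFAG00000045243, 30.7% for ENSMFAG00000037072, 28.3% for ENSMFAG00000002270 and 15.4% for ENSMFAG00000043027. Compared per kilobase of exonic width, the mean level at 200 mg/kg was highest for ENSMFAG00000003587 (30.4 CPM per kb) and ENSMFAG00000045243 (22.6 CPM per kb), a difference smaller than the spread between animals. The other genes were far lower, at 0.678 CPM per kb for ENSMFAG00000043027, 0.603 for ENSMFAG00000002270 and 0.357 for ENSMFAG00000037072. The differences between the means of these neighbours were also smaller than the spread between animals. Compared within each animal at 200 mg/kg, however, ENSMFAG00000037072 was always below ENSMFAG00000002270, at 0.521 to 0.704 of its level per kb.

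ENSMFAG00000003587 was the most abundant of the genes. Its level in the control animals was 11.04 CPM in 1501, 11.01 in 1502, 14.4 in 1503 and 14.2 in 1504. At 50 mg/kg it was 16.9 CPM in 4501, 20.04 in 4502, 11.4 in 4503 and 28.8 in 4504. At 200 mg/kg it was 30.8 CPM in 5501, 126.7 in 5502, 52.6 in 5503 and 40.7 in 5504. Every animal at 200 mg/kg was above every animal of the other groups, and 5502 stood well above the rest. At 50 mg/kg, 3 of the 4 animals were above all controls, whereas 4503 lay within the control range. The group means were 12.7 ± 1.90 CPM with anti-gD, 19.3 ± 7.30 at 50 mg/kg and 62.7 ± 43.6 at 200 mg/kg (SD, n = 4 each).

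ENSMFAG00000045243 had a different profile at the lower dose. Its level was 3.43 CPM in control 1501, 8.19 in 1502, 6.38 in 1503 and 3.85 in 1504. With 50 mg/kg it was 9.71 CPM in 4501, 4.25 in 4502, 7.33 in 4503 and 5.06 in 4504. With 200 mg/kg it was 32.99 CPM in 5501, 87.6 in 5502, 12.2 in 5503 and 14.7 in 5504. The animals at 50 mg/kg overlapped with the controls, with only 4501 above all of them, while the animals at 200 mg/kg were all higher than every other animal. The group means were 5.46 ± 2.24, 6.59 ± 2.46 and 36.9 ± 35.04 CPM for anti-gD, 50 mg/kg and 200 mg/kg (SD, n = 4 each), so the SD at 200 mg/kg was nearly as large as the mean.

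ENSMFAG00000037072 was below 1 CPM in all controls, at 0.431 CPM in 1501, 0.446 in 1502, 0.357 in 1503 and 0.602 in 1504. The level at 50 mg/kg was 1.07 CPM in 4501, 1.28 in 4502, 0.706 in 4503 and 1.08 in 4504. The level at 200 mg/kg was 4.36 CPM in 5501, 1.89 in 5502, 9.98 in 5503 and 1.82 in 5504. The groups were ordered by dose without overlap, and the highest animal was 5503, not 5502. The group means were 0.459 ± 0.103, 1.04 ± 0.240 and 4.51 ± 3.83 CPM (SD, n = 4 each).

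ENSMFAG00000002270 was found at 0.646 CPM in control 1501, 0.260 in 1502, 0.419 in 1503 and 0.803 in 1504. Animals at 50 mg/kg had 0.812 CPM in 4501, 0.938 in 4502, 0.866 in 4503 and 1.11 in 4504. Animals at 200 mg/kg had 2.95 CPM in 5501, 1.73 in 5502, 8.38 in 5503 and 1.49 in 5504. The groups again did not overlap, although at 50 mg/kg the margin was only that between 0.803 CPM in 1504 and 0.812 CPM in 4501. Animal 5503 was the highest, as for ENSMFAG00000037072. The group means were 0.532 ± 0.240, 0.932 ± 0.129 and 3.64 ± 3.23 CPM (SD, n = 4 each).

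ENSMFAG00000043027 was close to absent in 3 of the 4 control animals. It had 1 count in 1501, 21 in 1502, 0 in 1503 and 2 in 1504, which is 0.0135, 0.390, 0 and 0.0309 CPM. At 50 mg/kg it had 35 counts in 4501 (0.536 CPM), 0 in 4502, 41 in 4503 (0.658 CPM) and 79 in 4504 (0.985 CPM). At 200 mg/kg it had 75 counts in 5501 (1.15 CPM), 36 in 5502 (0.586 CPM), 82 in 5503 (1.22 CPM) and 52 in 5504 (0.784 CPM). The gene was thus read in every animal at 200 mg/kg, and the lower dose split into 3 animals with it and 1 without. A count of 0 allows a level of up to 0.0466 CPM in 1503 and 0.0469 CPM in 4502, taking 3 counts as the limit. The group means were 0.109 ± 0.188, 0.545 ± 0.410 and 0.935 ± 0.301 CPM (SD, n = 4 each). These few counts make ENSMFAG00000043027 the least certain of the genes, and intervals and limits of this kind cover counting error only.

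**Figure D1:**
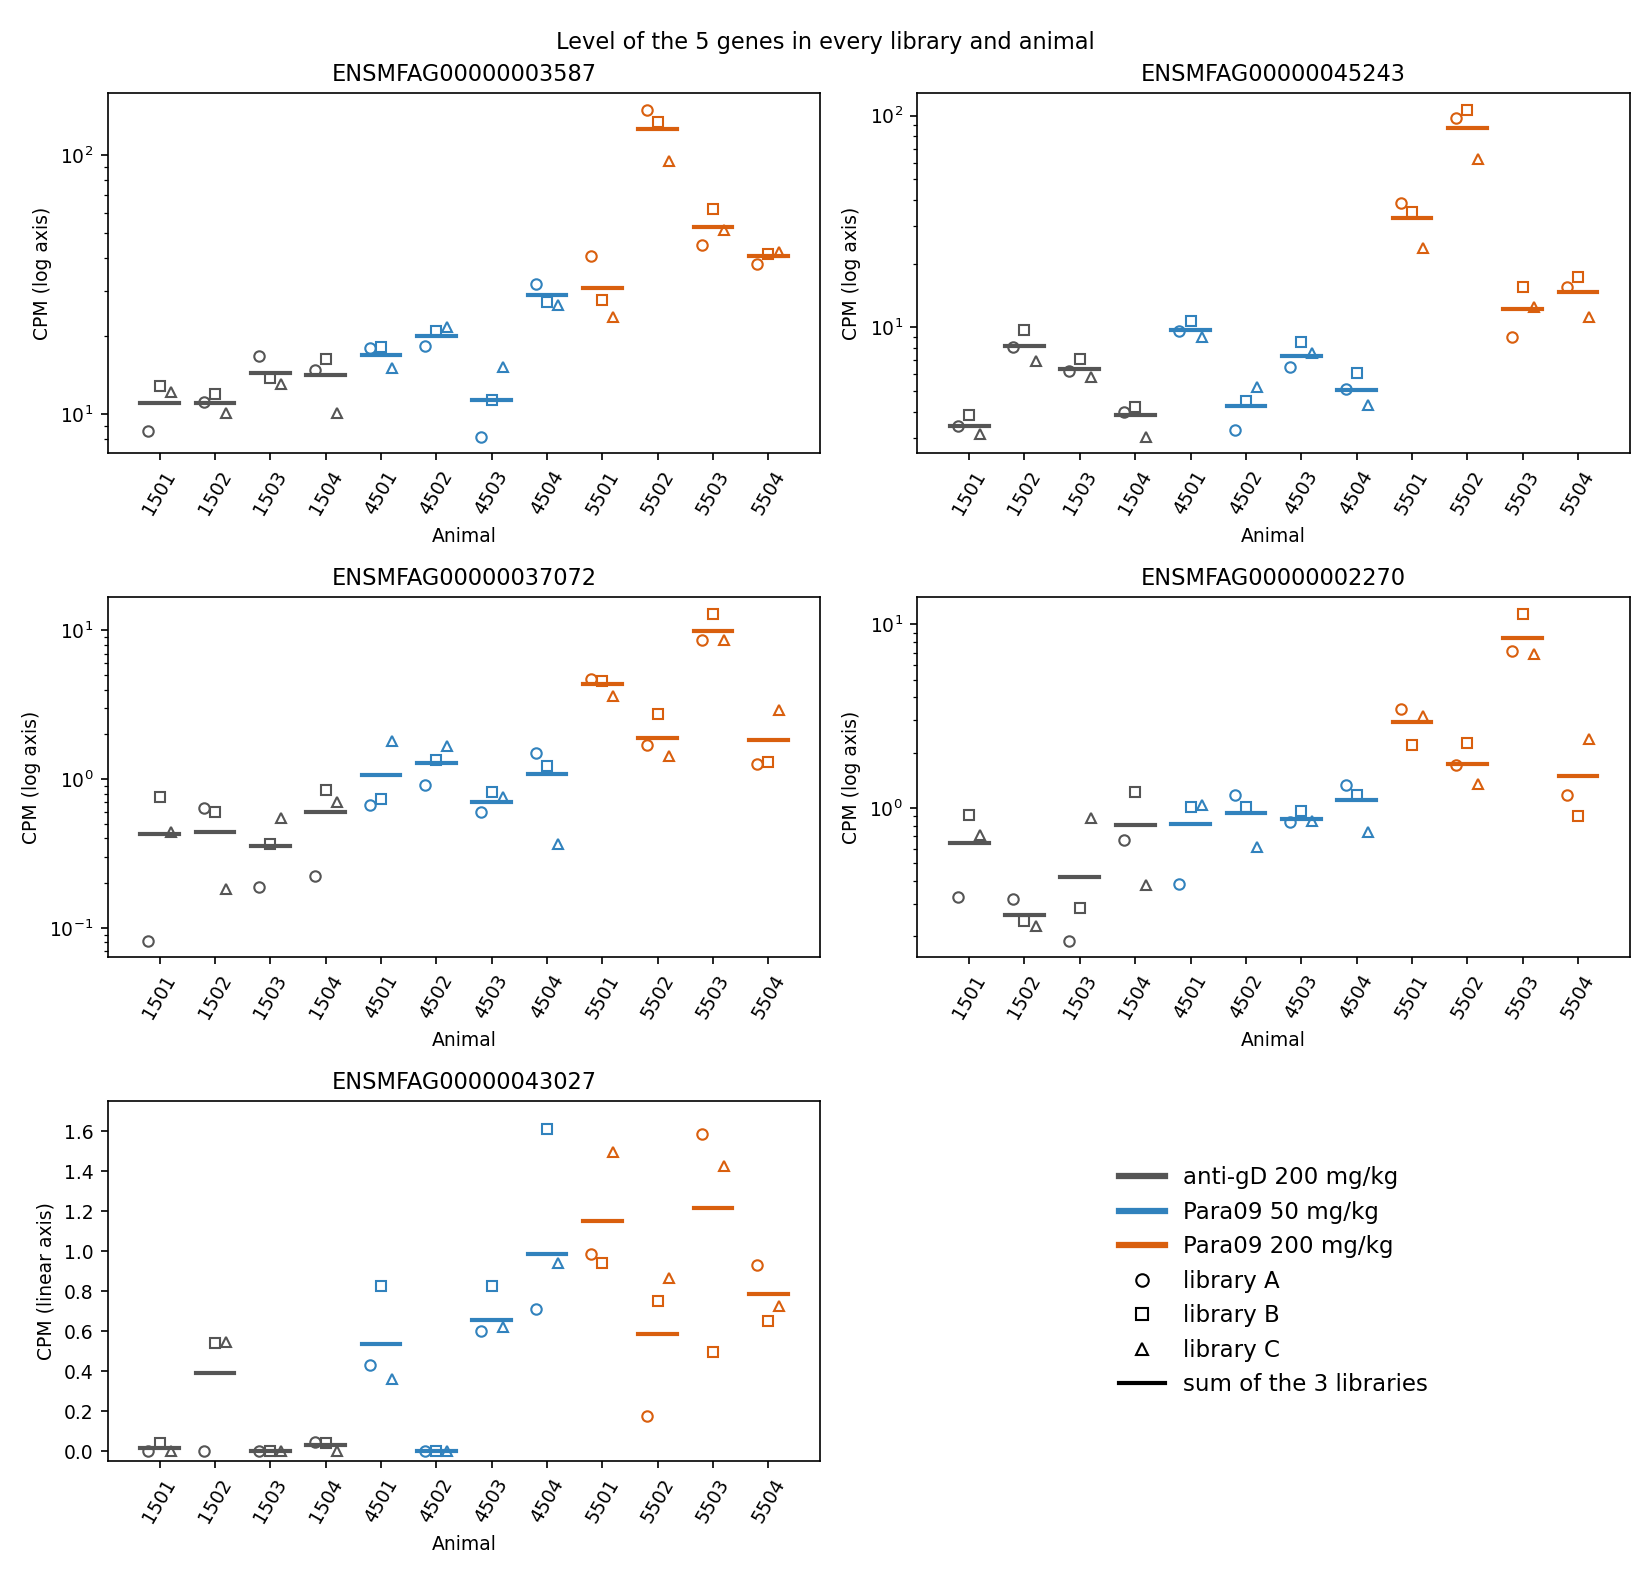
Level of the 5 genes (CPM, vertical axis, on a log scale for the first 4 genes and linear for ENSMFAG00000043027) in each of the 12 animals (horizontal axis), with open symbols for the libraries A, B and C and a bar for their sum. Animal 5502 is highest for ENSMFAG00000003587 (126.7 CPM) and ENSMFAG00000045243 (87.6 CPM), and animal 5503 for ENSMFAG00000037072 (9.98 CPM) and ENSMFAG00000002270 (8.38 CPM).

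The fold differences at 200 mg/kg chose these genes, so they are given as a description without a test. Against anti-gD, the log2 fold change of the fit was 2.31 (SE 0.41) for ENSMFAG00000003587, 2.76 (SE 0.58) for ENSMFAG00000045243 and 3.29 (SE 0.52) for ENSMFAG00000037072. It was 2.76 (SE 0.53) for ENSMFAG00000002270 and 3.18 (SE 1.12) for ENSMFAG00000043027. All 5 exceeded 4-fold, as the choice required, where 0.104% of the 17360 genes did. All 5 were also without overlap between the 4 animals at 200 mg/kg and the 4 controls, where 1.32% of all genes were higher without overlap. The median log2 fold change was 2.76 over the 5 genes and 0.00 over all genes. For the series as a whole, the edgeR quasi-likelihood test called 0 of 17360 genes (0%) at a Benjamini-Hochberg adjusted p under 0.05. An unadjusted p under 0.05 was held by 691 genes, fewer than that threshold gives on average where no gene differs. DESeq2, given all 28623 genes of the count tables, called 14, of which 4 were among the 5. Since the genes were picked on this contrast, nothing is read from that.

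The difference at 50 mg/kg was smaller for every gene, which was also part of the choice. Its log2 fold change against anti-gD was 0.60 (SE 0.39) for ENSMFAG00000003587 and 0.26 (SE 0.55) for ENSMFAG00000045243. For ENSMFAG00000037072 it was 1.16 (SE 0.50), for ENSMFAG00000002270 0.79 (SE 0.52) and for ENSMFAG00000043027 2.40 (SE 1.11). Only ENSMFAG00000043027 exceeded 4-fold at this dose, as 0.0634% of all genes did. ENSMFAG00000037072 and ENSMFAG00000002270 were higher than the controls without overlap, as 2.4% of all genes were. Both doses were set against the same control animals, so the differences are not independent of each other.

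Between the doses, 200 against 50 mg/kg, the log2 fold change was 1.71 (SE 0.40) for ENSMFAG00000003587, 2.50 (SE 0.57) for ENSMFAG00000045243 and 2.13 (SE 0.49) for ENSMFAG00000037072. It was 1.97 (SE 0.51) for ENSMFAG00000002270 and 0.78 (SE 0.97) for ENSMFAG00000043027. A higher level at 200 than at 50 mg/kg was built into the choice of the genes, so nothing is read from their counts in this contrast. In it 2 of the 5 exceeded 4-fold, against 0.0864% of all genes. The animals of the doses did not overlap for 4 of the 5, against 1.18% of all genes, and ENSMFAG00000043027 was the exception, with 2 of the 4 animals at 200 mg/kg above every animal at 50 mg/kg.

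**Figure D2:**
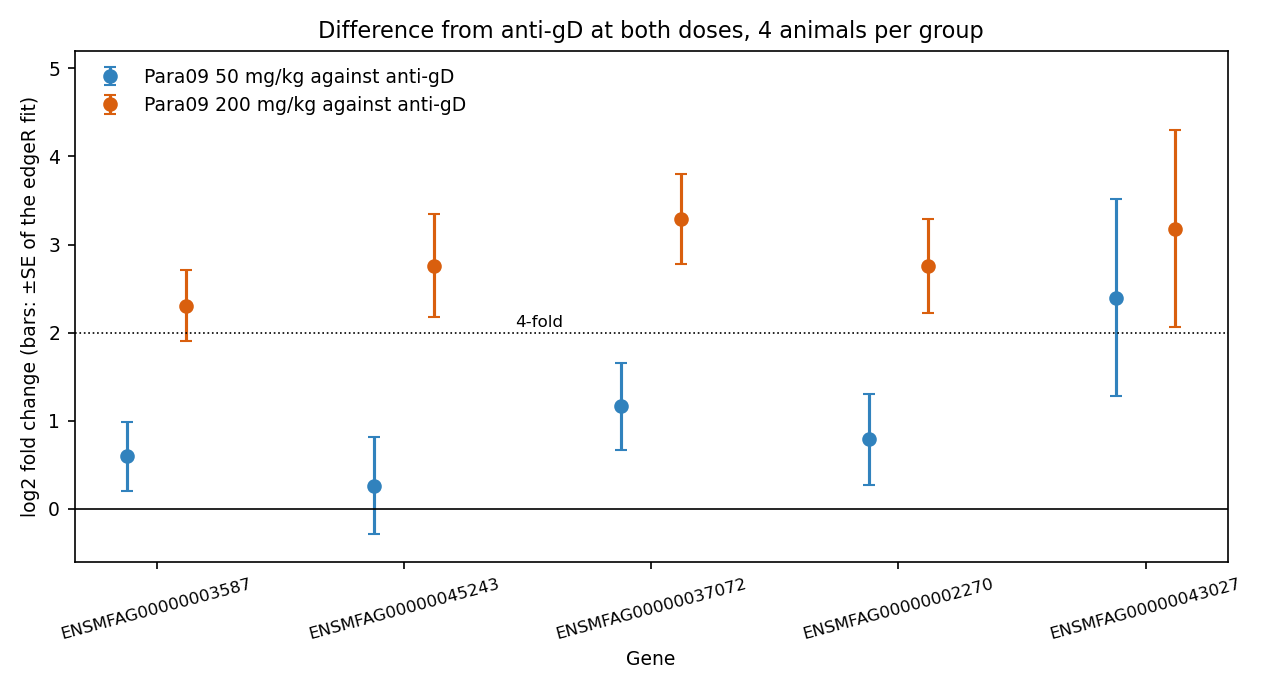
Log2 fold change against anti-gD (vertical axis; points are the estimates and bars the SE of the edgeR fit on 4 animals per group) for the 5 genes (horizontal axis) at 50 and 200 mg/kg of Para09, with a dotted line at 4-fold. The estimates at 200 mg/kg lie between 2.31 and 3.29, and those at 50 mg/kg between 0.26 and 2.40.

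For ENSMFAG00000043027 the fitted fold change leaned on control animal 1502, which alone held 21 counts. The other controls had 3 counts in all, beside 155 counts in the animals at 50 mg/kg and 245 in those at 200 mg/kg. In 1502 the gene had 0 counts in library A, 9 in B and 12 in C. Over the group, 7 of 12 control libraries were at 0, as were 3 of 12 at 50 mg/kg (all from 4502) and 0 of 12 at 200 mg/kg.

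Single animals carried much of the mean at 200 mg/kg. Animal 5502 held 50.5% of the summed CPM of ENSMFAG00000003587 and 59.4% of that of ENSMFAG00000045243. Animal 5503 held 55.3% of that of ENSMFAG00000037072 and 57.6% of that of ENSMFAG00000002270. For ENSMFAG00000043027 the highest animal, again 5503, held 32.6% and was 1.06 times the next. With the highest animal set aside, the mean of the other 3 lay above the control mean, as it had to where the groups did not overlap, by 3.27-fold for ENSMFAG00000003587, 3.65-fold for ENSMFAG00000045243, 5.86-fold for ENSMFAG00000037072, 3.86-fold for ENSMFAG00000002270 and 7.74-fold for ENSMFAG00000043027. Refitted without 5502, the log2 fold change fell to 1.70 for ENSMFAG00000003587 and 1.86 for ENSMFAG00000045243, below 4-fold. Without 5503 it was 1.93 for ENSMFAG00000002270, also below 4-fold, and 2.54 for ENSMFAG00000037072.

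**Figure D3:**
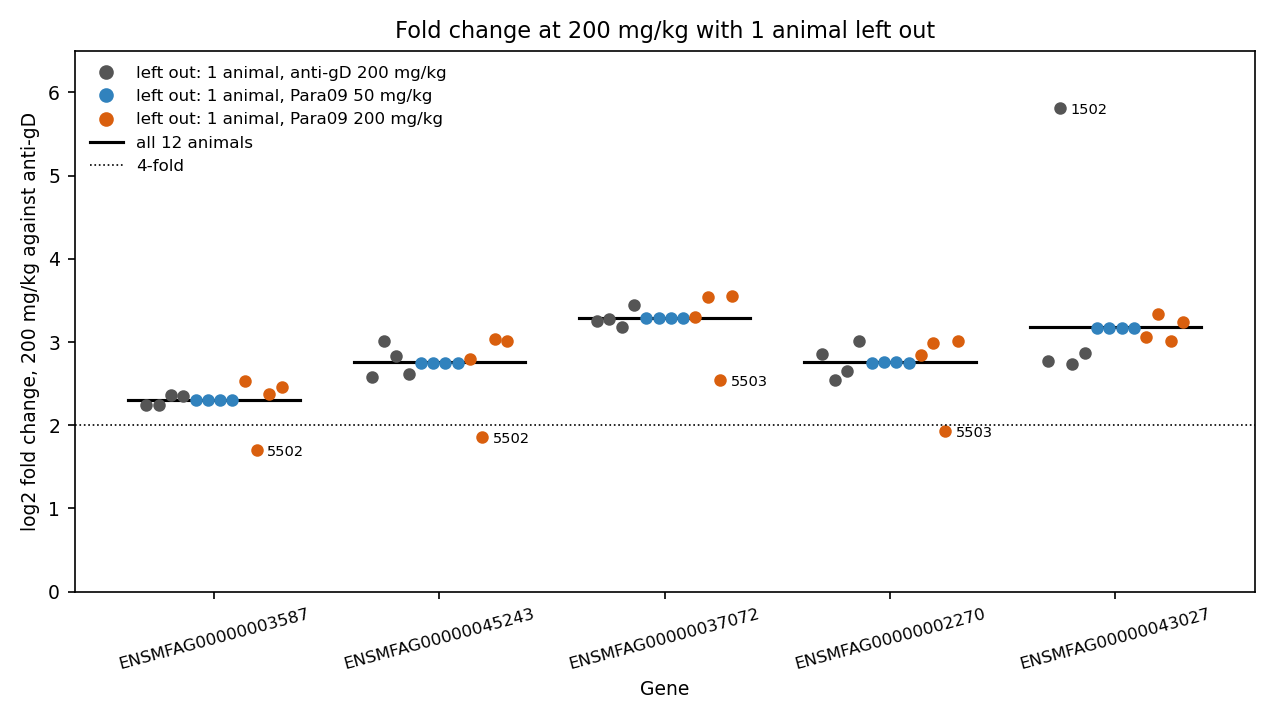
Log2 fold change at 200 mg/kg against anti-gD (vertical axis) for the 5 genes (horizontal axis) when 1 animal is left out, with a point for each of the 12 animals coloured by its group, a bar for the value with all animals and a dotted line at 4-fold. Leaving out 5502 gave 1.70 for ENSMFAG00000003587 and 1.86 for ENSMFAG00000045243, and leaving out control 1502 gave 5.81 for ENSMFAG00000043027, a value that depends on the prior count of the fit.

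The single libraries are parts of the sums on which the genes were picked, so their levels are a description and no separate support. The 3 libraries of an animal are also not independent, and the matching share over all genes was not determined. At 200 mg/kg, 12 of 12 libraries were above every control library for ENSMFAG00000003587 and for ENSMFAG00000037072, 11 for ENSMFAG00000045243, and 10 each for ENSMFAG00000002270 and ENSMFAG00000043027. At 50 mg/kg the corresponding numbers were 8 for ENSMFAG00000003587, 6 for ENSMFAG00000037072, 1 for ENSMFAG00000045243, 1 for ENSMFAG00000002270 and 7 for ENSMFAG00000043027. The libraries of ENSMFAG00000003587 ranged from 8.56 to 16.8 CPM (median 12.5) in controls, from 8.17 to 31.7 (median 18.2) at 50 mg/kg and from 23.7 to 150.1 (median 43.6) at 200 mg/kg. Those of ENSMFAG00000045243 ranged from 3.05 to 9.75 CPM (median 5.04), from 3.27 to 10.7 (median 6.32) and from 9.06 to 106.6 (median 20.4). For ENSMFAG00000037072 the ranges were 0.0823 to 0.851 CPM (median 0.498), 0.368 to 1.80 (median 0.871) and 1.26 to 12.9 (median 3.26). For ENSMFAG00000003587 and ENSMFAG00000037072 the lowest library at 200 mg/kg lay above the highest control library, and for ENSMFAG00000045243 it lay just under it. ENSMFAG00000002270 ranged from 0.189 to 1.22 CPM (median 0.355), from 0.384 to 1.34 (median 0.985) and from 0.899 to 11.4 (median 2.31). ENSMFAG00000043027 ranged from 0 to 0.546 CPM (median 0), from 0 to 1.61 (median 0.612) and from 0.175 to 1.59 (median 0.900).

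The highest animal at 200 mg/kg was the same in all 3 letters for 4 of the genes: 5502 for ENSMFAG00000003587 and ENSMFAG00000045243, and 5503 for ENSMFAG00000037072 and ENSMFAG00000002270. For ENSMFAG00000043027 it was 5503 in A and 5501 in B and C. Of the variance of log2 CPM within groups, the share between animals, as opposed to between libraries of an animal, was 90.3% for ENSMFAG00000045243, 82.8% for ENSMFAG00000003587, 69.8% for ENSMFAG00000043027, 58.2% for ENSMFAG00000002270 and 42.3% for ENSMFAG00000037072. The abundant genes therefore varied mostly from animal to animal, and ENSMFAG00000037072 more from library to library. The control libraries of ENSMFAG00000037072 held only 2 to 21 counts, and how much of its library share is counting error was not tested. All 5 varied more between animals of a group than genes of their level did on average, but a choice by large differences between means of 4 animals favours genes with a large spread. The biological coefficient of variation was 38.2% for ENSMFAG00000003587 against 20.1% for the trend at its level, 52.5% against 22.6% for ENSMFAG00000045243, and 108.7% against 44.1% for ENSMFAG00000043027. For ENSMFAG00000037072 it was 47.0% against 36.1%, and for ENSMFAG00000002270 49.6% against 37.1%.

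Whether the 5 genes were high in the same animals was examined over the 12 animals. Log2 CPM was taken as the deviation from the mean of the animal's group. This removes the difference between group means, but not the choice itself, which favours genes with a very high animal at 200 mg/kg. The r values, their p-values and their ranks among all genes are therefore not free of the choice. The 5 genes did not move as 1 set. Over the 10 pairs the median Pearson r was -0.06, 4 pairs were positive, and 0 pairs passed an adjusted p of 0.05 by the exact permutation test within groups (13824 arrangements, two-sided, Benjamini-Hochberg over the 10 pairs), with Pearson or with Spearman. The closest pair was ENSMFAG00000037072 and ENSMFAG00000002270, with r = 0.857 (exact permutation p = 0.0125, adjusted 0.125) and rho = 0.769 (exact permutation p = 0.0218, adjusted 0.218). Their deviations had the same sign in 10 of 12 animals. Without 5503 and 5504, the animals farthest from the median, r was 0.587. It was 0.883 in the B libraries, 0.785 within the second series and 0.621 without 5503 alone. Among the 17359 other kept genes, ENSMFAG00000037072 was the gene with the highest r to ENSMFAG00000002270, and ENSMFAG00000002270 was 3rd for ENSMFAG00000037072. The ratio of their levels per kilobase was 0.521 to 0.704 in the animals at 200 mg/kg, 0.388 to 0.651 at 50 mg/kg and 0.317 to 0.816 in the controls. The control animals held only 23 to 39 counts of ENSMFAG00000037072 and 14 to 52 of ENSMFAG00000002270. At 200 mg/kg the counts were 116 to 672 and 99 to 564. How much of the wider range in the controls is counting error was not tested.

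ENSMFAG00000003587 and ENSMFAG00000045243 shared their highest animal but were not otherwise parallel. Their r was 0.355 (exact permutation p = 0.503, adjusted 0.845) and rho 0.168 (exact permutation p = 0.678, adjusted 0.882), with the same sign in 5 of 12 animals. Without 5501 and 5502 r was -0.11. Without 5502 alone it was -0.53 and without 5501 alone 0.490, so the positive value rested on 5502. In the B libraries r was 0.331 and within the second series 0.538. At 200 mg/kg, 5501 was the lowest of the 4 for ENSMFAG00000003587 and the 2nd highest for ENSMFAG00000045243. The ratio of ENSMFAG00000003587 to ENSMFAG00000045243 per kilobase ranged from 0.738 to 3.40 at 200 mg/kg, from 1.22 to 4.50 at 50 mg/kg and from 1.06 to 2.91 in the controls.

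The r of ENSMFAG00000045243 with both genes of the low pair, ENSMFAG00000037072 and ENSMFAG00000002270, was negative and did not pass the test. Its r was -0.58 with ENSMFAG00000002270 (exact permutation p = 0.193, adjusted 0.845; rho = -0.53, p = 0.163, adjusted 0.816) and -0.24 without 5502 and 5503. With ENSMFAG00000037072 its r was -0.50 (exact permutation p = 0.388, adjusted 0.845; rho = -0.32, p = 0.412, adjusted 0.882) and 0.172 without the same animals. In 5502 the abundant genes were above their group mean and the low pair below it. In 5503 the low pair was above its mean and ENSMFAG00000045243 below. The other 6 pairs had r between -0.19 and 0.207, and they included all 4 pairs with ENSMFAG00000043027.

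**Figure D4:**
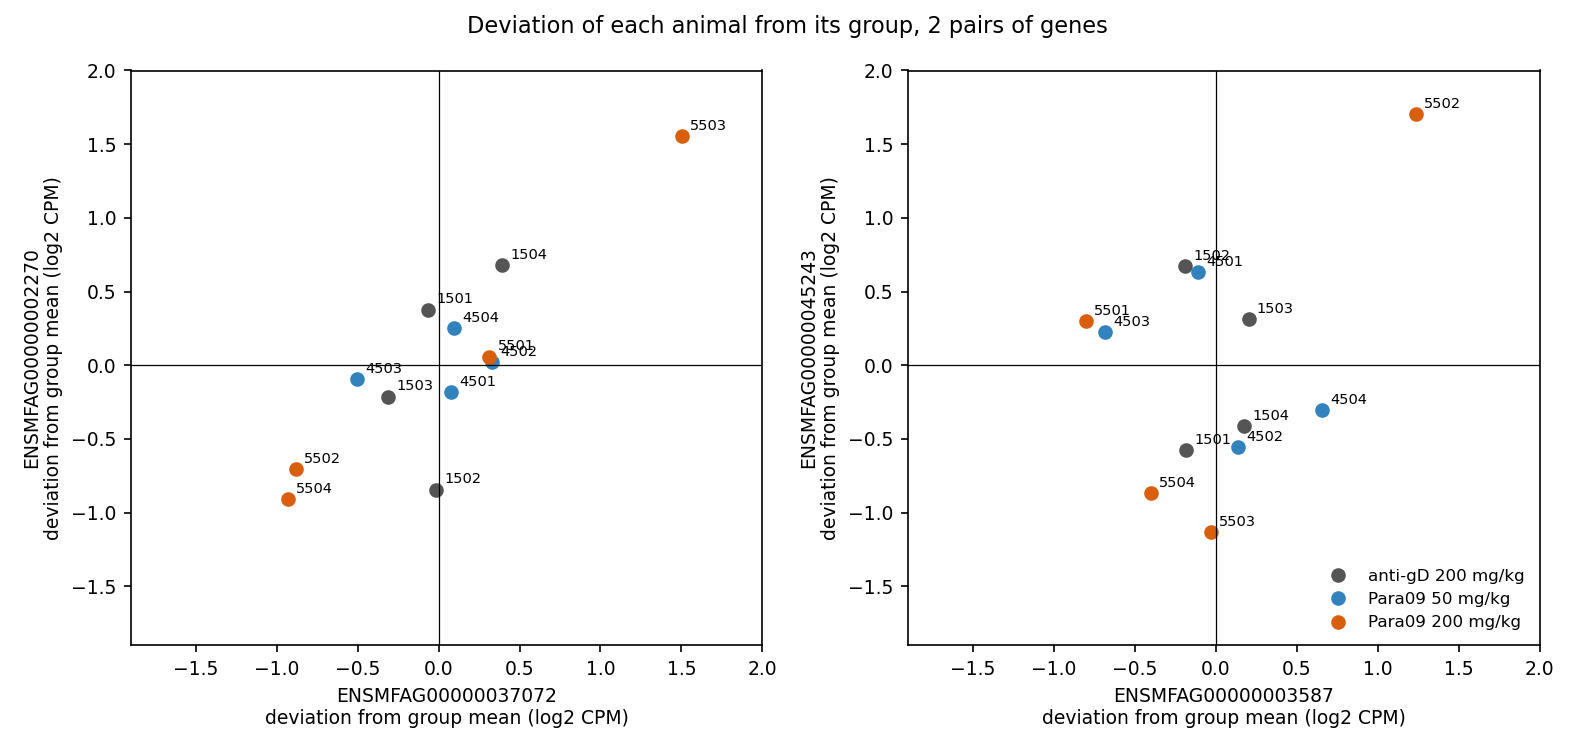
Deviation of each animal's log2 CPM from its group mean for ENSMFAG00000037072 and ENSMFAG00000002270 (left) and for ENSMFAG00000003587 and ENSMFAG00000045243 (right), with 1 point per animal coloured by group. On the left the points lie near a line (r = 0.857), with 5503 at the top right, and on the right 5502 stands alone at the top right (r = 0.355).

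**Figure D5:**
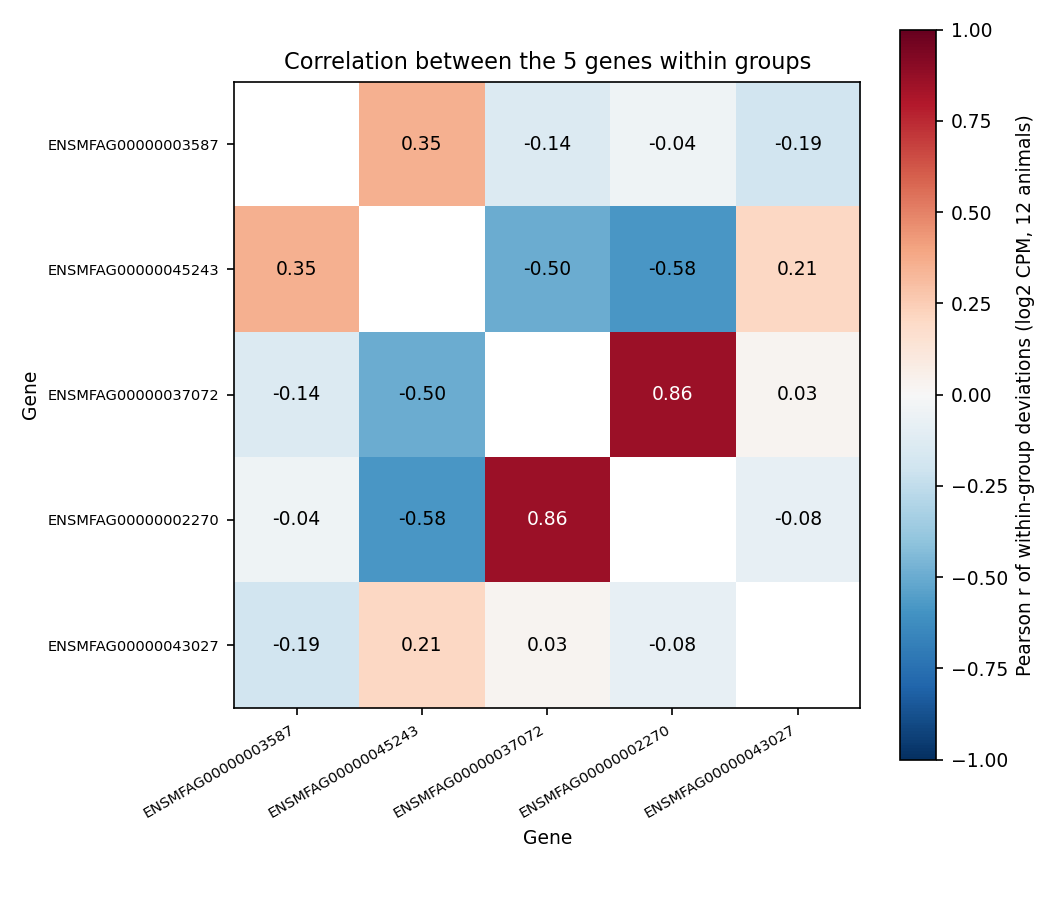
Pearson r of within-group deviations (log2 CPM, 12 animals) for each pair of the 5 genes on both axes, coloured from blue (-1) to red (1). The single deep red pair is ENSMFAG00000037072 with ENSMFAG00000002270 (0.857), and the bluest is ENSMFAG00000045243 with ENSMFAG00000002270 (-0.58).

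For 4 of the 5 genes the gene most alike in pattern was none of the other members. Over the 12 animals, the gene most like ENSMFAG00000003587 in within-group deviation was ENSMFAG00000003196 (r = 0.958), and the gene most like ENSMFAG00000045243 was ENSMFAG00000003950 (r = 0.957). Their log2 fold changes at 200 mg/kg against anti-gD were -0.05 and -0.33. Those of the 2 genes most like ENSMFAG00000037072 (r = 0.923 and 0.879) were higher, at 1.36 and 1.86. Both genes were low, with means of 0.189 and 0.415 CPM, so their values rest on few counts. ENSMFAG00000045243 was only 2494th among 17359 genes for ENSMFAG00000003587, and ENSMFAG00000003587 1981st for ENSMFAG00000045243. These r values are the largest of many and are given as a description.

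The letters were not part of the choice, so they could be tested. Between letters C and A of the same animals, none of the 5 genes passed the edgeR quasi-likelihood test, with log2 differences of -0.11 for ENSMFAG00000003587, -0.16 for ENSMFAG00000045243, 0.28 for ENSMFAG00000037072, 0.10 for ENSMFAG00000002270 and 0.41 for ENSMFAG00000043027 and Benjamini-Hochberg adjusted p of 0.544 to 0.860. Over all genes the test called 0 of 15683 (0%), with 1543 at an unadjusted p under 0.05. DESeq2 also called 0 of the 5, and its share over all genes was not determined. Letter B was set against A with C in the 10 animals where B belongs to the first series and A and C to the second. There, ENSMFAG00000045243 was higher in B by 0.36 on the log2 scale (SE 0.08; edgeR adjusted p = 0.000759). Its mean was 19.0 CPM in B and 14.6 CPM in A and C, and it was higher in 10 of 10 animals. It was the only one of the 5 called, where 57.8% of 15954 genes were, so a call here is the common case. The other 4 had log2 differences of 0.15 to 0.35 and edgeR adjusted p of 0.160 to 0.390. Letter and series cannot be told apart in these animals.

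The fold differences within each series are given as a description only, since the genes were picked on sums of these same libraries. In the B libraries, all from the first series, the log2 fold change against anti-gD was 2.28 for ENSMFAG00000003587, 2.82 for ENSMFAG00000045243, 3.05 for ENSMFAG00000037072, 2.63 for ENSMFAG00000002270 and 2.37 for ENSMFAG00000043027. In these libraries 3 of the 5 genes were without overlap between the 200 mg/kg and control animals, where 1.06% of all genes were higher without overlap. In the second series alone, over 10 animals, it was 2.56, 2.65, 3.63, 2.98 and 3.21 for the genes in the same order. Without library 5501B the values were 2.31, 2.74, 3.28, 2.80 and 3.22. At 50 mg/kg ENSMFAG00000037072 was the gene that moved most between the series, with 0.68 in the B libraries and 1.68 in the second series.

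The rule that picked the genes was met by 15 of the 17360 kept genes (0.0864%), and the 5 were not all of them. Of the 15, 5 had a mean of at least 1 CPM at 200 mg/kg. These were not the 5 members, since ENSMFAG00000043027 was at 0.935 CPM and a gene outside the members reached 1.02 CPM. Of the 15, 11 had no overlap between the 200 mg/kg and control animals. The gene just inside the limit was ENSMFAG00000000158, at 4.11-fold from 0.0495 to 0.212 CPM. The gene just outside was ENSMFAG00000032867, at 3.96-fold from 0.233 to 0.929 CPM. The member nearest to the limit was ENSMFAG00000003587, at 4.95-fold.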

How the data were processed

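For each of 36 libraries the deposited table lists, per the file headers, every gene with its count of reads, its RPKM and its exonic width in bases. GSNAP is named in the submitters' processing notes, with no version. The sources used here do not give the genome build, annotation, strand or handling of reads that match several places, and members may share reads with overlapping genes or close copies. The authors' RPKM values served only to recover the library totals they were scaled to. Nothing says whether the 3 libraries of an animal are separate pieces of tissue, so the animal was the replicate and its counts were summed. Folds, SE and CPM came from edgeR 4.0.16 in R 4.3.3 (quasi-likelihood fit on all 12 animals, TMM, filterByExpr, prior count 2 in log2 CPM). The SE is not an output of the fit. It was derived as the absolute log2 fold change divided by the square root of the quasi-likelihood F statistic. Letters were tested with the animal as a block, and p-values were adjusted over all genes tested by the Benjamini-Hochberg method. Alternatives used DESeq2 1.42.0, limma 3.58.1, other scalings, single letters or series and each animal left out, and leaving out library 5501B and removing letter and series from the library deviations were chosen after seeing the data. The named genes are the 5 members, the genes on either side of the limit and the 2 most alike in pattern. The members and lists were chosen with earlier results of these data known. Marker and pathway lists could not be applied without gene names.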

Additional observations from a re-analysis of the deposited data

Results flagged for a closer look

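ENSMFAG00000043027 in control animal 1502 stood apart from the other controls, at 0.390 CPM where the next highest control had 0.0309 CPM. It was the single such case among 15 sets of 4 animals (5 genes in 3 groups), and chance gives about 1 in 20.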

How the results depend on the processing

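Of 360 alternative fold changes (5 genes, 3 contrasts, 24 settings), 351 stayed within the spread between animals, 8 moved further and 1 reversed: ENSMFAG00000043027 at 200 against 50 mg/kg, at -0.18 in letter B alone. This spread is a wide limit, with an SD of up to 2.03 on the log2 scale. The fall of ENSMFAG00000045243 at 200 mg/kg against anti-gD from 2.76 to 1.86 without 5502 counts as within it. In letter B alone 3 of the 5 genes were without overlap at 200 mg/kg (1.06% of all genes), since ENSMFAG00000002270 and ENSMFAG00000043027 overlapped. The number above 4-fold ranged from 3 to 5 with 1 animal left out (3 without 5502, 4 without 5503). The median correlation was -0.27 on CPM without a log. For ENSMFAG00000003587 with ENSMFAG00000045243, r was -0.53 without 5502 and 0.872 on CPM without a log. For ENSMFAG00000037072 with ENSMFAG00000002270 it was 0.621 without 5503. ENSMFAG00000043027 at 200 mg/kg gave 5.73 in letter A and 5.81 without 1502, which depend on the prior count. ENSMFAG00000037072 at 50 mg/kg gave 1.76 in letter A, and ENSMFAG00000002270 at 200 against 50 mg/kg gave 1.14 without 5503. The higher level of ENSMFAG00000045243 in letter B was called in 14 of 14 fits with edgeR or DESeq2 (adjusted p 0.000259 to 0.0121). These fits share most of their libraries, and the main fit called 57.8% of 15954 genes. Beyond the smaller number of samples in some settings, the cause of these changes was not tested. No paired analysis was possible because the groups share no animal numbers. Depth limits ENSMFAG00000043027 most, with 0 to 40 counts per library.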

Other observations

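Library levels were also compared within animals, over the 36 libraries as deviations of log2 CPM from the mean of their animal. ENSMFAG00000003587 and ENSMFAG00000045243 had r = 0.624, and 0.612 with letter and series also removed. ENSMFAG00000037072 and ENSMFAG00000002270 had r = 0.613, and 0.578 with letter and series removed. The other 8 pairs lay between -0.19 and 0.292, and between -0.37 and 0.287 with letter and series removed. Libraries of an animal share their source and the deviations share depth and scaling, so these are descriptions. The 10 other genes that met the rule had means of 0.212 to 1.02 CPM at 200 mg/kg and were 4.11-fold to 8.43-fold above the controls, and 6 of them were without overlap.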
